A study of Homo sapiens with 12 samples.

Results

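The autosomes of the human genome (build hg19) were divided here into tiles of 100 kb, and the subject is the 300 tiles in which DNA labelled with bromodeoxyuridine (BrdU) was called most densely in H1 embryonic stem cells, IMR90 primary lung fibroblasts and Saos-2 osteosarcoma cells. BrdU is a thymidine analogue that is built into DNA as it is copied, so that an antibody against it pulls down DNA made during the labelling. The tiles were chosen by region counts: the midpoints of called BrdU regions were counted per tile in the H1 control, IMR90 and Saos-2 lists, each count was divided by the autosomal total of its list, and the 300 autosomal tiles with the highest sum of the 3 shares were kept. These are 300 of 21102 occupied tiles (1.42%), a tile being occupied when it held the midpoint of at least 1 region in any of the 6 lists of the series. A further 7693 tiles up to the last region of each chromosome held none.

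The H1 cells for BrdU sequencing had received a non-targeting siRNA (the control) or siRNAs against EP300 and CREBBP, which encode the acetyltransferases p300 and CBP, and both cultures were grown with 10 µM HA 1077 and collected after 72 h. No siRNA was given to IMR90 or Saos-2, nor to the H1 culture in which H3K18ac, acetylation of histone H3 at lysine 18, was mapped; control and knockdown BrdU cultures thus share a transfection and an additive that the labels give for no other group. Each group was 1 library of 1 line, which left no replicate spread to test a line or a treatment against. Intervals in the text cover counting error only, and neighbouring regions are not independent of each other. Expression was not analysed here, so the cell types were taken from the labels.

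Chromosomes are copied in large domains, each with its own time in S phase, and the domains copied early tend to be rich in genes and in acetylated histones. Within such domains several start sites of replication can lie close together. H3K18ac is laid down mainly by p300 and CBP and is known as a mark of active promoters and enhancers. The lists analysed here record where BrdU or the mark was called, and not when in S phase a place was copied.

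The BrdU lists held 4954 autosomal regions in H1 control, 5710 in IMR90 and 6061 in Saos-2. The 300 tiles held 788, 1077 and 1255 of them, or 15.9%, 18.9% and 20.7% of each list. These counts chose the tiles and are given as a description. A tile held from 0 to 7 H1 control regions (median 3), from 0 to 11 IMR90 regions (median 4) and from 1 to 20 Saos-2 regions (median 4). All 3 lists were present in 271 of the 300 tiles. H1 control was missing from 15 tiles and IMR90 from 17, while every tile held a Saos-2 region. Over the 3 lists together a tile held from 7 to 26 regions, with a median of 9.5, as the histograms of region counts show.

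**Figure D1:**
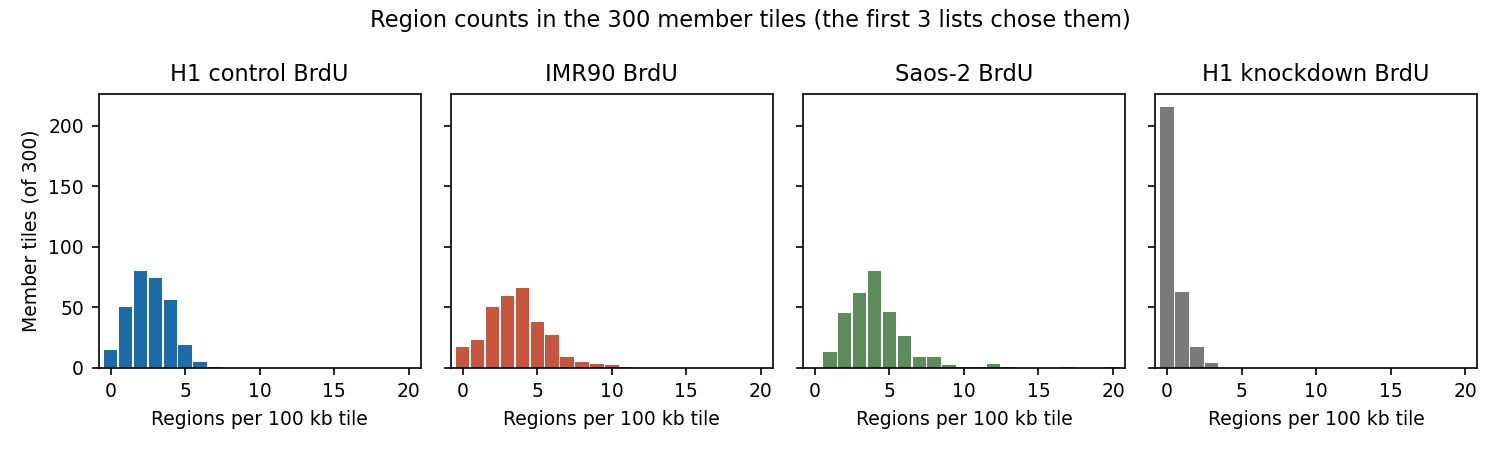
Number of member tiles (vertical axis) by the number of regions per 100 kb tile (horizontal axis) in 4 BrdU lists. The first 3 lists chose the tiles and centre on medians of 3 or 4 regions. In the knockdown list, which did not, 216 of the 300 tiles held 0 regions.

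The densest 2 tiles were neighbours near the end of the long arm of chromosome 14. The first, chr14:106100001-106200000, held 5 H1 control, 10 IMR90 and 11 Saos-2 regions, and the second, chr14:106000001-106100000, held 4, 8 and 13. Both were well filled in all 3 lines. They held 3 and 1 H3K18ac regions in H1, few beside the median of 10 in members but near the median of 2 in other occupied tiles. In IMR90 both held 0, where the medians were 1 and 2. The third tile, chr9:137600001-137700000, had 7, 11 and 5 BrdU regions in H1 control, IMR90 and Saos-2, and it was rich in H1 H3K18ac, with 18 regions. On chromosome 19 at 42400001 to 42500000 the fourth tile had 3, 7 and 12 BrdU regions in the same order. The fifth, chr12:132600001-132700000, had 5, 10 and 4, and the ninth, chr12:132800001-132900000, had 1, 5 and 12. Both lie on the same chromosome arm, 100 kb apart, and they differ in the line that filled them most. The sixth, chr4:49100001-49200000, had 20 Saos-2 regions and 0 in every other list of the series. The remaining tiles of the first 10 were chr22:40000001-40100000 with 4, 8 and 6 BrdU regions, chr8:144400001-144500000 with 3, 9 and 6, and chr7:1600001-1700000 with 5, 6 and 6.

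The lower limit of the set fell within a group of ties. The tiles ranked 299 and 300, chr4:38700001-38800000 and chr5:33600001-33700000, each held 3 H1 control, 2 IMR90 and 2 Saos-2 regions. The next 2 tiles, chr6:11400001-11500000 and chr6:169700001-169800000, held the same numbers and were left out by chromosome order. In all, 14 tiles shared this sum of 0.129 percentage points, 4 of them inside the set and 10 outside, against a sum of 0.458 in the densest tile.

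In 189 tiles no list gave over 50% of the sum. Saos-2 did so in 43 tiles, IMR90 in 49 and H1 control in 19. The most uneven tiles toward H1 were chr10:47000001-47100000, with 5 H1 control, 0 IMR90 and 2 Saos-2 regions, and chr10:5500001-5600000, with 5, 1 and 1. Toward IMR90 they were chr2:241900001-242000000, with 0 in H1 control, 6 in IMR90 and 2 in Saos-2, and chr20:60800001-60900000, with 1, 7 and 2. The tiles with Saos-2 regions alone included that on chromosome 4 and chr16:33800001-33900000, which held 8. A group of 5 tiles lay within 2 Mb of the widest stretch of their chromosome that held no region of any list, where 2.33% of occupied tiles lay. In 4 of these 5, at chr4:49100001-49200000, chr16:33800001-33900000, chr21:10700001-10800000 and chr21:10800001-10900000, Saos-2 gave at least 93.3% of the sum, with 20, 8, 17 and 8 regions. These 4 tiles held 1 H3K18ac region between them. The fifth, chr13:20900001-21000000, held 1, 4 and 3 BrdU regions in H1 control, IMR90 and Saos-2.

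Regions inside the tiles were longer and of higher score than those of the same list outside, again as a description of the lists that chose them. The mean length was 301 bp inside and 197 bp outside in H1 control, 310 and 189 bp in IMR90, and 429 and 303 bp in Saos-2. The median region stood at percentile 71.4 of its list by score in H1 control, 70.8 in IMR90 and 61.2 in Saos-2. Overlapping regions of the 3 lists formed 1988 loci inside the tiles, with a median of 6 per tile. Of these loci, 322 (16.2%) were found in all 3 lines and 598 of 11229 outside (5.33%), which is a description only, since the same 3 lists chose the tiles. At least 1 such common locus was present in 221 tiles, and 79 had none. When regions of the 3 lists within 10 kb of each other were joined, a tile held a median of 3 separate clusters and at most 6.

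Common loci were most numerous, at 4, in the tile on chromosome 12 at 132600001 to 132700000. They lay at chr12:132608601-132609000, chr12:132640101-132643100, chr12:132650801-132651800 and chr12:132665701-132666100. The second of them, of 3000 bp, carried the region of highest score of the whole Saos-2 list on autosomes (132640101 to 132643100) and the H1 control region ranked 5 by score (132640301 to 132642900), and it also held both knockdown regions of that tile. In the tile of rank 2, on chromosome 14, 3 common loci lay within 10 kb, at chr14:106029001-106030900, chr14:106033501-106034400 and chr14:106036401-106037400. The first of these was ranked 11 by score in H1 control, 8 in IMR90 and 30 in Saos-2. The tile on chromosome 9 also had 3, of which chr9:137651201-137653200 spanned 3 separate H1 control regions and a single region in each of the other lines. It overlapped 2 H1 H3K18ac regions between 137652001 and 137652900, which lay within the IMR90 and the Saos-2 region. The H1 control region of highest score in that tile, 137651201 to 137651800, ended before the mark began. Whether the other H1 control regions of this locus met the mark is not given here.

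Most member tiles lay toward the ends of chromosomes. Of the 300 tiles, 174 (58.0%, Wilson 95% interval 52.3 to 63.4) were centred within 5 Mb of a chromosome end, against 8.54% of occupied tiles, and 99 (33.0%) lay within 2 Mb, against 3.41%. The median distance to an end was 3.6 Mb, against 33.3 Mb for occupied tiles. Long-arm ends held 130 of the 174 tiles, or 12.3% of the 1055 occupied tiles there, and short-arm ends held 44, or 5.88% of 748. Short-arm ends of 5 chromosomes were not counted, because their first region started beyond 5 Mb. The share near ends was 64% when the tiles were chosen without H1 control and 51.7% when they were chosen without IMR90.

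Chromosomes differed widely in the share of their occupied tiles that were members. It was highest on chromosomes 21 (5.69%, 16 tiles), 22 (5.31%, 17 tiles), 19 (5.21%, 27 tiles) and 16 (3.93%, 25 tiles). It was lowest on chromosomes 15 (0.281%, 2 tiles), 6 (0.390%, 5 tiles) and 3 (0.549%, 8 tiles). On chromosome 21, 14 of the 16 tiles lay within 5 Mb of an end. Chromosome 1, the longest, had 24 tiles of which 1 lay within 5 Mb of an end. On chromosome 19, 12 of the 27 tiles lay near an end, and on chromosome 22, 7 of the 17.

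**Figure D2:**
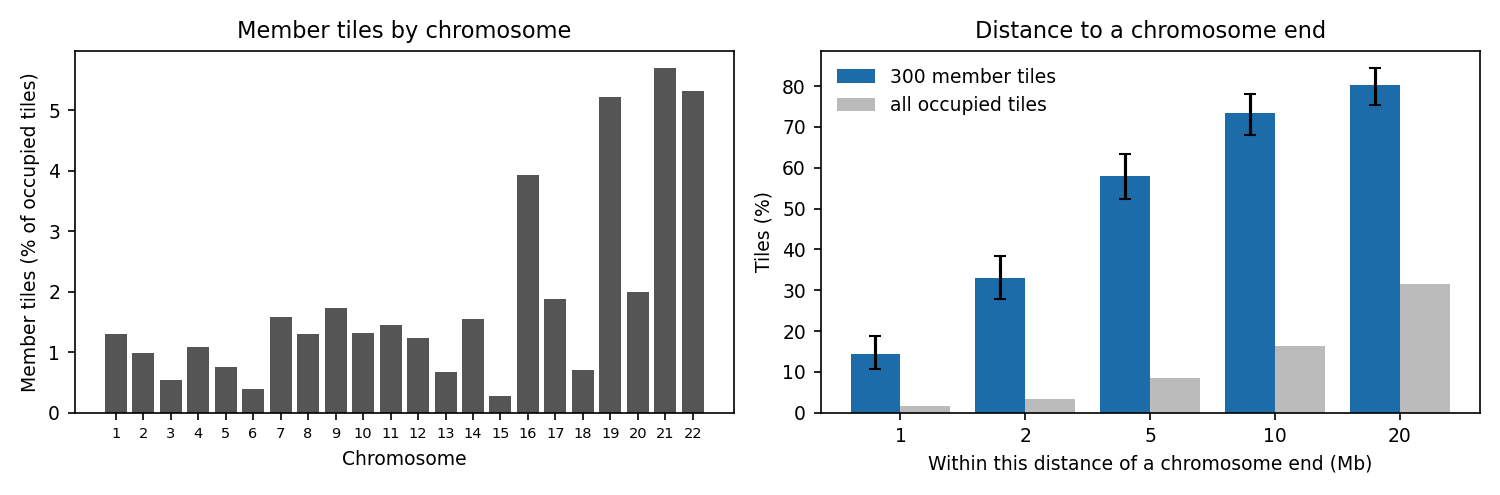
Left, member tiles as a percentage of the occupied tiles of each chromosome. Right, percentage of the 300 member tiles (with Wilson 95% intervals) and of all occupied tiles within 1 to 20 Mb of a chromosome end; within 5 Mb the values are 58.0% and 8.54%.

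The tiles formed 246 separate stretches, of which 205 were a single tile and 32 a pair of neighbours. The longest runs were of 4 tiles, and there were 4 of them. The one with the tile of best rank, chr12:132800001-133200000, held in order 1, 3, 1 and 1 H1 control regions, 5, 2, 9 and 4 IMR90 regions and 12, 8, 5 and 4 Saos-2 regions. The run at chr10:134800001-135200000 held 13 H1 control, 13 IMR90 and 16 Saos-2 regions, with 64 H1 H3K18ac regions. The run at chr16:88200001-88600000 held 9, 15 and 20 BrdU regions and, unlike the other 3 runs of this length, had more H3K18ac regions in IMR90 (46) than in H1 (34).

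To measure each line in tiles that it had not helped to choose, 300 tiles were selected in the same way from the other 2 lines. Each line was denser in the tiles that the other lines chose. Tiles chosen from IMR90 and Saos-2 held 624 H1 control regions (12.6% of the list), a mean of 2.08 per tile against 0.208 in other occupied tiles, or 9.99-fold (exact Poisson 95% interval 9.22 to 10.8). An H1 control region was present in 254 of these 300 tiles. It was present in 16.4% of the occupied tiles outside the member set. H1 control had helped to choose that set, so this last share is a description only and no independent comparison. In tiles chosen from H1 control and Saos-2, IMR90 regions were 10.9-fold denser (10.1 to 11.7), with 774 regions and a mean of 2.58 against 0.237. In tiles chosen from H1 control and IMR90, Saos-2 regions were 13.6-fold denser (12.8 to 14.5), with 995 regions and a mean of 3.32 against 0.244. Of these choices, 250, 223 and 235 tiles were also among the 300 members. Measured by covered bp, the folds were 15.4, 18.8 and 22.1, and in the upper 50% of each measured list by score they were 18.3, 18.9 and 20.0. When tiles within 5 Mb of a chromosome end were compared alone, the folds by count were lower, at 4.61, 4.13 and 4.53, and beyond 5 Mb they were 11.4, 10.6 and 14.5.

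**Figure D3:**
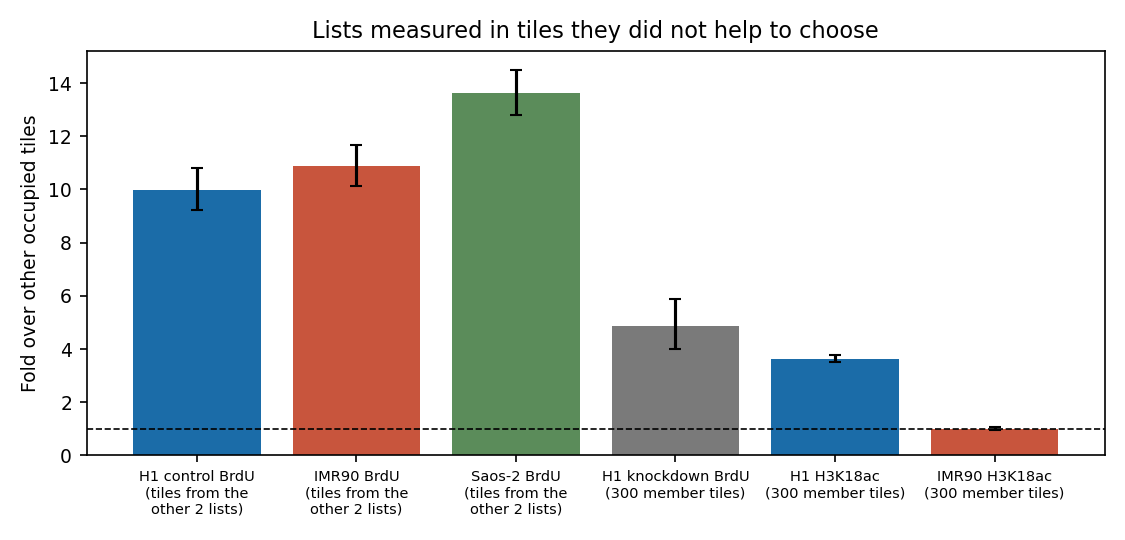
Mean regions per tile as a fold over the other occupied tiles, for lists that did not take part in choosing the tiles; bars carry exact Poisson 95% intervals and the dashed line marks 1. The 3 BrdU lists, each in tiles chosen from the other 2 lines, lie between 9.99 and 13.6; in the 300 member tiles the knockdown is at 4.87, H1 H3K18ac at 3.63 and IMR90 H3K18ac at 0.994.

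The H1 list made after knockdown of EP300 and CREBBP was also denser in the member tiles, although most of them held none of its regions. At least 1 knockdown region was present in 84 of the 300 tiles (28.0%), against 7.22% of occupied tiles, and the tiles held 109 of the 1662 autosomal knockdown regions (6.56%). The mean was 0.363 per member tile (SD 0.653 over 300 tiles) and 0.0747 per other tile, or 4.87-fold (4.00 to 5.87). In the upper 50% of the knockdown list by score the fold was 9.06. Within 5 Mb of an end the fold was 2.91 and beyond it 6.45. A single knockdown region lay in 63 tiles, 2 lay in 17 tiles and 3 in 4 tiles. The 3 of highest BrdU sum among these 4 were chr2:218800001-218900000, with 5 H1 control regions, chr10:79200001-79300000, with 4, and chr1:201200001-201300000, with 3. Of the 109 knockdown regions in the tiles, 75 (68.8%) overlapped a region of at least 1 of the 3 choosing lists, against 12.3% of those outside. The remaining 34 were called at places inside the tiles that none of the 3 lists held. This is a description only, since the tiles were chosen for being dense in these 3 lists. The share of knockdown sequence in H1 control regions was 55.6 times the control coverage inside and 243 times outside, the opposite order. For IMR90 regions these values were 18.7 and 93.6, and for Saos-2 regions 34.8 and 187.

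Knockdown and control were compared in the tiles chosen from IMR90 and Saos-2, since the H1 control list had taken no part in that choice. These tiles held 95 knockdown regions (5.72% of the list, 4.70 to 6.94) and 624 control regions (12.6%, 11.7 to 13.5), at 4.20-fold (3.40 to 5.14) and 9.99-fold over other tiles. The share was lower in the knockdown list, with intervals that did not meet. It also varied with score within the control list: of the 1662 control regions of highest score, as many as in the knockdown list, 364 (21.9%, 20.0 to 24.0) lay in these tiles, and of the 1662 of lowest score, 48 (2.89%, 2.19 to 3.81). The knockdown list had a value between these. Read depth is unknown and there was 1 library for each condition, so a change with the treatment and a difference in list strength cannot be told apart.

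Region by region, 44 of the 788 control regions inside member tiles (5.58%, 4.19 to 7.41) overlapped a knockdown region, against 110 of 4166 outside (2.64%, 2.20 to 3.17). In the upper 50% of the control list by score, the shares were closer, at 6.80% inside and 5.57% outside. The control list had helped to choose the tiles, and the knockdown list covered 0.0573% of member tiles and 0.00880% of other tiles. The share of control sequence in knockdown regions was 3.25% inside and 2.12% outside. This was 56.7 times the knockdown coverage inside and 241 times outside, the opposite order. The overlap was low in both places, and 82.1% of the control regions inside belonged to that upper 50%.

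H3K18ac in H1 was dense in the member tiles. They held 3208 of the 64465 autosomal H1 H3K18ac regions, with a median of 10 per tile (from 0 to 41) against a median of 2 in other occupied tiles. The means were 10.7 (SD 6.08, over 300 tiles) and 2.94, or 3.63-fold (3.51 to 3.76). Nearly all tiles, 295 of 300 (98.3%), held the mark, but so did 81.2% of occupied tiles. The difference lay in the number of regions: 167 member tiles (55.7%) held 10 or more, against 6.99% of occupied tiles. When occupied tiles were ranked by H1 H3K18ac and split into 10 groups of equal size, 195 member tiles (65.0%) fell in the highest group, 58 in the next, and from 1 to 22 in each of the remaining 8.

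The mark also varied with position: tiles near chromosome ends held more of it whether or not they were members. Within 5 Mb of an end, members had a mean of 11.9 H1 H3K18ac regions and other tiles 6.41, or 1.86-fold (1.78 to 1.94). Beyond 5 Mb the means were 9.03 and 2.65, or 3.41-fold (3.21 to 3.61). Members exceeded other tiles in both places. The number of H1 H3K18ac regions did not follow the BrdU rank among the members: the median was 11 in the first 60 tiles and 9.5 in the last 60, and over the 300 tiles the Spearman correlation with the BrdU sum was 0.0609. The sum had been cut off at its lower end by the choice of tiles, and all tiles share the same 4 libraries here.

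The 2 tiles richest in H1 H3K18ac were on chromosome 21. The tile at chr21:46700001-46800000 held 41 H1 regions and 20 in IMR90, with 4 H1 control, 1 IMR90 and 4 Saos-2 BrdU regions. The tile at chr21:44800001-44900000 held 31 in H1 and 1 in IMR90, and that at chr21:46800001-46900000 held 27 and 12, a count in H1 that chr16:85600001-85700000 and chr21:44700001-44800000 equalled. At the other extreme, 5 member tiles had no H1 H3K18ac region. The densest of these in BrdU was the Saos-2 tile on chromosome 4, followed by chr14:106200001-106300000 with 2 H1 control, 5 IMR90 and 4 Saos-2 regions and chr16:66400001-66500000 with 2, 4 and 3. The tile on chromosome 14 adjoins the densest tiles of the set, and this run of 3 tiles held 11 H1 control, 23 IMR90 and 28 Saos-2 BrdU regions but 4 H3K18ac regions of H1 and 0 of IMR90.

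H3K18ac in IMR90 showed no such density over the member tiles as a whole. They held 1174 of the 83075 autosomal IMR90 regions, a mean of 3.91 per tile (SD 5.75) against 3.94, or 0.994-fold (0.938 to 1.05). Split by position, the fold was 1.04 (0.960 to 1.13) within 5 Mb of an end and 1.16 (1.07 to 1.26) beyond it. The median was 1 in members and 2 in other tiles, and the mark was present in 181 tiles (60.3%), against 65.1% of occupied tiles. A count of 10 or more was found in 37 tiles (12.3%), against 12.7%. Ranked by IMR90 H3K18ac, the 10 groups of occupied tiles each held between 24 and 41 member tiles. Tiles in which IMR90 was strong were led by chr17:75400001-75500000 with 37 regions, followed by chr16:86400001-86500000 and chr16:85200001-85300000 with 27 each. In 253 member tiles (84.3%) the H1 list had more H3K18ac regions than the IMR90 list, against 48.7% of occupied tiles, although the IMR90 list was the longer of the pair. This compares numbers of regions, whose mean length inside the tiles was 207 bp in H1 and 516 bp in IMR90. By covered sequence the 2 marks were close in member tiles, at 2.22% in H1 and 2.01% in IMR90. In other occupied tiles they covered 0.708% and 1.84%. With 1 library for each line and separately called lists, the size of the contrast between the lines could not be set against replicate spread.

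**Figure D4:**
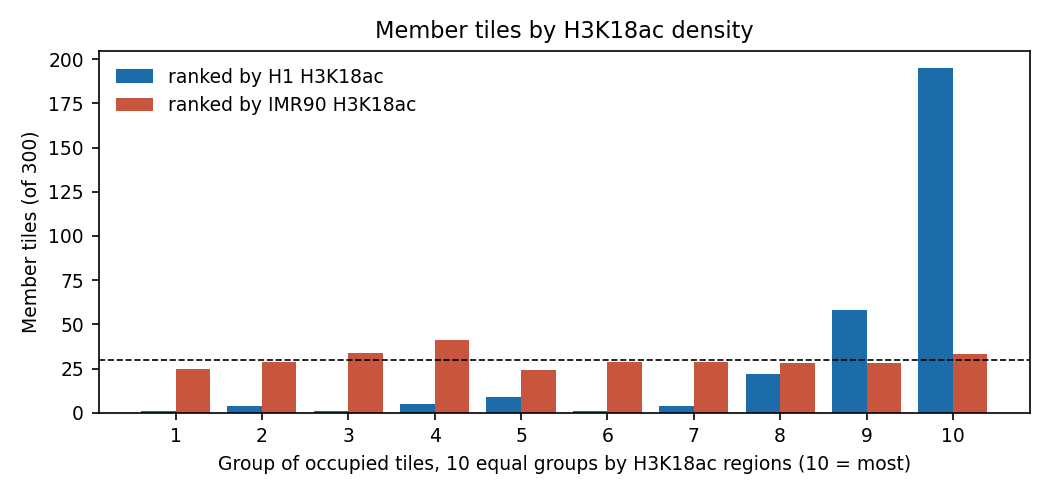
Number of the 300 member tiles in each of 10 equal groups of the 21102 occupied tiles, ranked by H1 (blue) or IMR90 (red) H3K18ac regions; tiles with equal counts are ordered by position. The dashed line marks an even spread over the groups; the highest group by H1 held 195 members and no group by IMR90 more than 41.

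By number of regions, H1 H3K18ac also exceeded IMR90 H3K18ac in the tiles to which IMR90 gave most of the BrdU sum. In the 49 tiles in which IMR90 gave over 50% of the sum, the median was 12 H1 H3K18ac regions (from 3 to 27) and 2 IMR90 H3K18ac regions (from 0 to 21). In the 19 tiles led by H1 control, the medians were 9 and 3. In the 43 led by Saos-2 they were 10 and 0. The ranges overlapped widely, and the groups were formed from the counts that chose the tiles. The position of these groups differed: 65.3% of the tiles led by IMR90 lay within 5 Mb of a chromosome end, 53.5% of those led by Saos-2 and 26.3% of those led by H1 control.

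Within the tiles, the mark and the BrdU regions did not always fall at the same sites. Of the 788 H1 control regions inside, 99 (12.6%, 10.4 to 15.1) overlapped an H1 H3K18ac region by at least 1 bp, against 342 of 4166 outside (8.21%, 7.41 to 9.08). This excess was absent in the upper 50% of the control list by score, with 15.1% inside and 16.0% outside, close values for which no interval was computed. H1 H3K18ac covered 2.22% of the sequence of member tiles and 0.708% of other tiles. The share of BrdU-called sequence that carried the mark was alike, at 8.65% inside and 8.46% outside, so that it was 3.90 times the coverage of the tiles inside and 12.0 times outside. Loci found in all 3 lines showed the same: 93 of 322 inside (28.9%, 24.2 to 34.1) and 184 of 598 outside (30.8%, 27.2 to 34.6) overlapped H1 H3K18ac.

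In IMR90 the direct overlap was rarer inside the tiles. Of the 1077 IMR90 BrdU regions inside, 10 (0.929%, 0.505 to 1.70) overlapped an IMR90 H3K18ac region, against 130 of 4633 outside (2.81%, 2.37 to 3.32). The mark covered 2.01% of the sequence of member tiles and 0.419% of the IMR90 BrdU sequence in them. H1 control and Saos-2 regions inside the tiles also seldom met the IMR90 mark, at 1.40% and 0.956%, against 2.62% and 2.85% outside. The H1 mark was overlapped by 11.7% of the IMR90 BrdU regions inside and 8.91% of those outside. By bp these shares were 6.85% inside and 7.94% outside. The share of IMR90 BrdU regions in the IMR90 mark was below that outside also when at least 50% of the region had to overlap (0.743% and 2.55%), in the upper 50% by score (0.509% and 2.51%) and within 1 kb (6.22% and 9.61%).

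The flanks of the tiles were described for the lists that had not chosen them. For the knockdown list the fold over other occupied tiles was 4.87 in the tile and 1.63 in the adjoining tiles that were no members, and it was 1.35 at 1 Mb. H1 H3K18ac was at 3.63 in the tile, 3.03 in adjoining tiles and 2.24 at 1 Mb. IMR90 H3K18ac stood at 0.994, 1.06 and 0.908. The knockdown list thus fell more at the edge of the tile than the H1 mark. Flank tiles were by definition no members, so they had been left out of a choice made for dense BrdU. The drop of a BrdU list therefore cannot be compared with that of the mark, and a difference in reach was not tested. Beyond the adjoining tiles the knockdown fold varied between 1.00 and 2.05, and that of the H1 mark between 2.12 and 2.89. No intervals were computed for flank folds, so whether the knockdown at 1 Mb exceeded other tiles beyond counting error was not tested.

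**Figure D5:**
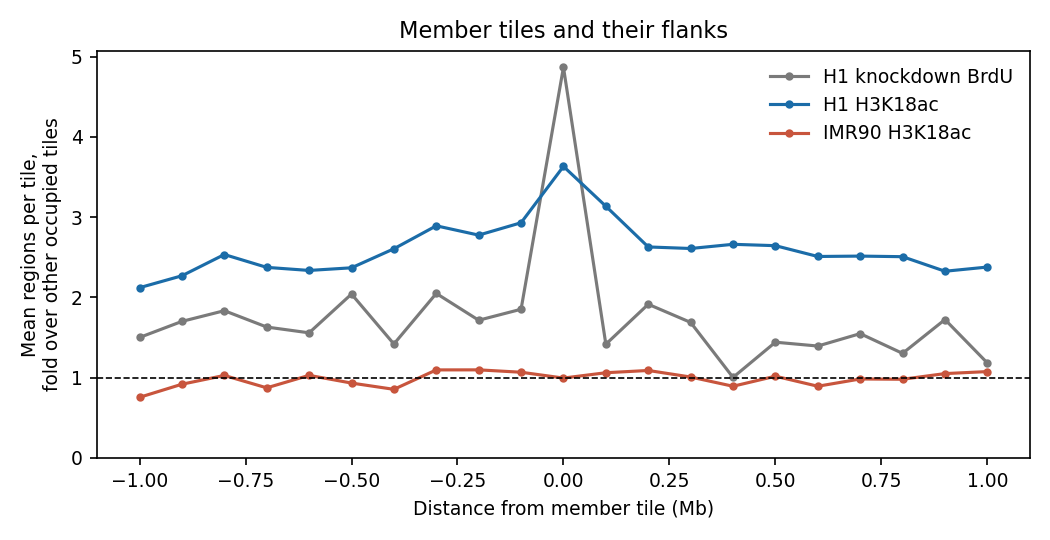
Mean regions per tile, as a fold over other occupied tiles (vertical axis), in the member tiles (0) and in tiles up to 1 Mb to either side that were not members themselves (horizontal axis, Mb). The knockdown list drops from 4.87 to values between 1.00 and 2.05 beyond the adjoining tiles, H1 H3K18ac stays between 2.12 and 2.89 there, and IMR90 H3K18ac lies near 1.

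Tiles of the next ranks had lower values than the members for the knockdown list, H1 H3K18ac and nearness to ends. Those ranked 301 to 600 had 3.41 times the knockdown regions (2.70 to 4.26) and 3.06 times the H1 H3K18ac regions (2.95 to 3.18) of other occupied tiles, and 1.00 times the IMR90 H3K18ac regions, with 39.7% of them within 5 Mb of an end. The H1 H3K18ac fold of the 300 members, 3.63 (3.51 to 3.76), lay above theirs, and the knockdown interval of the members, 4.00 to 5.87, overlapped theirs. Of the 300 tiles densest in H1 H3K18ac, 47 were members, while members made up 1.42% of all occupied tiles. Of these 300 tiles, 47.3% lay within 5 Mb of an end. In those tiles BrdU regions were 4.63-fold (H1 control), 5.89-fold (IMR90) and 5.07-fold (Saos-2) denser than elsewhere, which is well under the 9.99 to 13.6-fold that tiles chosen from the other BrdU lists gave. Of the 300 tiles densest in IMR90 H3K18ac, 4 were members, which is near the 1.42% share of members among all occupied tiles. The BrdU folds over these 300 tiles were 1.04, 1.05 and 0.974 in the same order.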

How the data were processed

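BrdU and H3K18ac pull-downs from 3 cell lines gave 6 lists of regions, 1 per library; 6 inputs were not used. Per the submitters' processing notes, Bowtie 0.12.7 and hg19 were used; for the region caller, its threshold, duplicates and inputs the method is not given in the sources used here. In the deposited lists, region bounds fall on steps of 100 bp, and start and end both belong to the region. The last column is a score from the authors without a stated unit, used only for ranks within a list. Depth is unknown.

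Autosomal midpoints were counted in 100 kb tiles from position 1 with Python 3.11.15, numpy 2.4.6, pandas 2.3.3, scipy 1.17.1 and matplotlib 3.10.9. A fold is the mean per tile over that of the other occupied tiles, with an exact Poisson 95% interval of the member count. Shares have Wilson 95% intervals. Chromosome ends were position 1 and the last region of any list. The code was tested on simulated lists. Tiles were named by a rule: the 10 of highest sum, those at the limit, the extremes of each list, and the longest runs. The tiles and comparisons were chosen with earlier results of these data known. Alternatives are given in the closing section. No hg19 genome or annotation was used here, so tiles carry no gene names or sequence.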

Additional observations from a re-analysis of the deposited data

Results flagged for a closer look

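The contrast between member tiles and the rest differed between H1 and IMR90, the lines with both assays, and the differences between them were not tested, with 1 library each. The share of H1 control BrdU regions that overlapped H1 H3K18ac was 4.35 percentage points higher inside the tiles than outside, whereas that of IMR90 BrdU regions in IMR90 H3K18ac was lower, by -1.88 points. In the upper 50% of the H1 control list by score the share was not higher inside (15.1% against 16.0%, close values without an interval). By bp it was 8.65% inside and 8.46% outside. The number of H1 H3K18ac regions per tile was 7.75 higher in members than in other occupied tiles, and that of IMR90 differed by -0.0238, which is within counting error.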

How the results depend on the processing

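Of 107 alternative values, 48 stayed within the counting interval of the reported one, or for the tiles kept within 1.5 times. Below, the lists are in the order knockdown, H1 H3K18ac, IMR90 H3K18ac, then H1 control, IMR90 and Saos-2 BrdU in tiles of the other lines, and a list left out of a sentence did not move. With empty tiles included, the folds were 6.67, 4.97, 1.36, 13.7, 14.9 and 18.7. By covered bp of the measured list they were 6.52, 3.13, 1.09, 15.4, 18.8 and 22.1. In the upper 50% of the measured list by score, the knockdown was at 9.06, IMR90 H3K18ac at 1.06 and the BrdU lists at 18.3, 18.9 and 20.0. With choosing lists cut to their upper 50%, H1 H3K18ac was at 3.50. Tiles chosen by covered bp gave 3.27 for H1 H3K18ac, 11.0 for H1 control and 12.0 for Saos-2. The first 100 tiles gave 0.815 for IMR90 H3K18ac and 11.2, 12.9 and 15.9 for the BrdU lists, and 600 tiles gave 3.46 for H1 H3K18ac and 8.05, 9.53 and 11.4. Merging regions within 5 kb gave BrdU folds of 9.18, 9.99 and 12.6. Tiles starting 50 kb later gave 1.05 for IMR90 H3K18ac. Choosing without H1 control or Saos-2 gave 0.876 and 1.14 for IMR90 H3K18ac, and choosing without IMR90 gave 3.27 for H1 H3K18ac. The fold of IMR90 H3K18ac thus lay on either side of 1, while the other folds stayed above 1 under every alternative run.

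Splits by position were added after seeing the data, as was leaving out the 5 tiles at the widest empty stretch, which moved none of the 3 folds for which it was run (knockdown, H1 and IMR90 H3K18ac); it was not run for the BrdU lists in tiles of the other lines. Tiles within 5 Mb of an end gave 2.91 for the knockdown, 1.86 for H1 H3K18ac and 4.61, 4.13 and 4.53 for the BrdU lists, and tiles beyond it 6.45, 3.41, 1.16 for IMR90 H3K18ac and 11.4 for H1 control. The share of tiles near an end was 33.0% at 2 Mb (3.41% of occupied tiles) and 73.3% at 10 Mb (16.4%). At 5 Mb (8.54%) it was 51.3% for tiles chosen by covered bp and 48.8% for 600 tiles. Without H1 control, IMR90 or Saos-2 it was 64%, 51.7% and 52.3%.

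With 50% of the BrdU region overlapped, the share of H1 control in H1 H3K18ac was 6.35% inside and 5.16% outside. For H1 control in the knockdown it was 2.03% and 0.888%. Within 1 kb these shares were 33.8% inside and 21.8% outside, and 10.5% and 4.68%. For IMR90 in its H3K18ac they were 6.22% and 9.61% within 1 kb. The excess of H1 control in H1 H3K18ac inside the tiles was absent in the upper 50% by score (15.1% inside, 16.0% outside, without an interval). The causes were not tested. Of the 300 tiles, 285 were also chosen by raw counts, 234 by stricter lists and 189 by covered bp. No paired analysis was possible because each group had 1 library. Depth is unknown, so a place absent from a list may have lain under the authors' threshold.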
